A study of Bos taurus with 55 samples.

Results

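Mammary gland expression was compared within the 7 dairy cows that received soybean oil first and a control diet afterwards. These were the cows numbered 2, 9, 13, 17, 18, 24 and 26, chosen by their labelled period I diet and paired with themselves by cow number. They gave 14 of the 55 arrays of the study, 7 from each period. The study followed 28 Holstein-Friesian cows in mid-lactation that grazed by day and ate a total mixed ration at night, with rapeseed oil, linseed oil or a mixture of the oils in place of soybean oil in the other cows. In period I, the ration of these 7 cows held 2.7% soybean oil for 23 days, and tissue was taken at a mean of 176 days in milk. In period II they ate the control diet without added oil for 28 days and were sampled again at a mean of 204 days in milk. The oil always came first and no cow stayed on the control diet throughout, so diet, order of the periods and stage of lactation cannot be told apart. Below, a gene is said to rise or fall when it was called higher or lower in the soybean oil period than in the later control period.

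Soybean oil is a source of linoleic acid, a polyunsaturated fatty acid that rumen microbes hydrogenate to a range of intermediates before absorption. The mammary epithelium makes short and medium chain fatty acids itself, takes up long chain fatty acids from blood lipids, desaturates part of them and assembles triacylglycerol for the milk fat globule. Some biohydrogenation intermediates are known to lower milk fat synthesis in cows, and the transcription factor SREBF1 is a known regulator of the genes involved. Gene roles given below are those described in mammals in general.

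Unless given as an intensity, values are log2 of the deposited array intensity, called the level. Changes are soybean oil period minus control period with the standard error from limma. A probe set was called at a Benjamini-Hochberg adjusted p under 0.05 over all 10680 tested. Median intensity per array, before log2, lay between 9.51 and 10.8, which is a level of 3.25 to 3.43. Milk protein genes marked the tissue as lactating gland, with 6 of them at levels from 13.0 to 14.4 in all 14 arrays. The period II array of cow 2 had a mean correlation of 0.950 with all other arrays of the study, against 0.965 to 0.975 for the other 13, so results are also given without cow 2. Array names carry 1 of 2 prefixes. Cow 2 had both arrays under prefix 1 and cow 9 both under prefix 2, whereas in the other 5 cows period I was under prefix 1 and period II under prefix 2. Arrays also carry a number, which equals the cow number in period I and is 28 higher in period II. In these cows the numbers of the 2 periods do not overlap, so a fit with array number in place of the cow rests on extrapolation. The mean of 42 control probe sets for added RNA was higher in period I in 6 of 7 cows (median change 0.459, from -0.568 in cow 9 to 0.991 in cow 2). The GAPDH probe set at the 3′ end exceeded that at the 5′ end by a median of 0.342 in period I and 0.00316 in period II. This difference was larger in period I in 6 of 7 cows, and its part in the results was not tested. In whole tissue, fewer cells of a type and less RNA per cell cannot be told apart.

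In the soybean oil cows 927 of 10680 probe sets were called (8.68%), 402 higher (3.76%) and 525 lower (4.92%) in the soybean oil period. They included 657 named genes, of which 275 rose and 382 fell. The falls were larger, with a median of -0.767 against 0.575 for the rises. Changes over 2-fold numbered 32 upward and 147 downward. Of the calls, which were made on these same cows, 781 had the same direction in 7 of 7 cows. In 249 of them no period I array overlapped any period II array. Among all 10680 tested probe sets 1435 had 1 direction in 7 of 7 cows, and 317 (2.97%) had arrays that did not overlap. A dim signal, with a mean level under 3, stood behind 205 of the calls. Of the 10680 tested, 5922 were not dim. When each array was centred on its median, which moved the median change of all probe sets from 0.04 to 0.12, 64.9% of calls were higher in place of 43.4%.

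**Figure D1:**
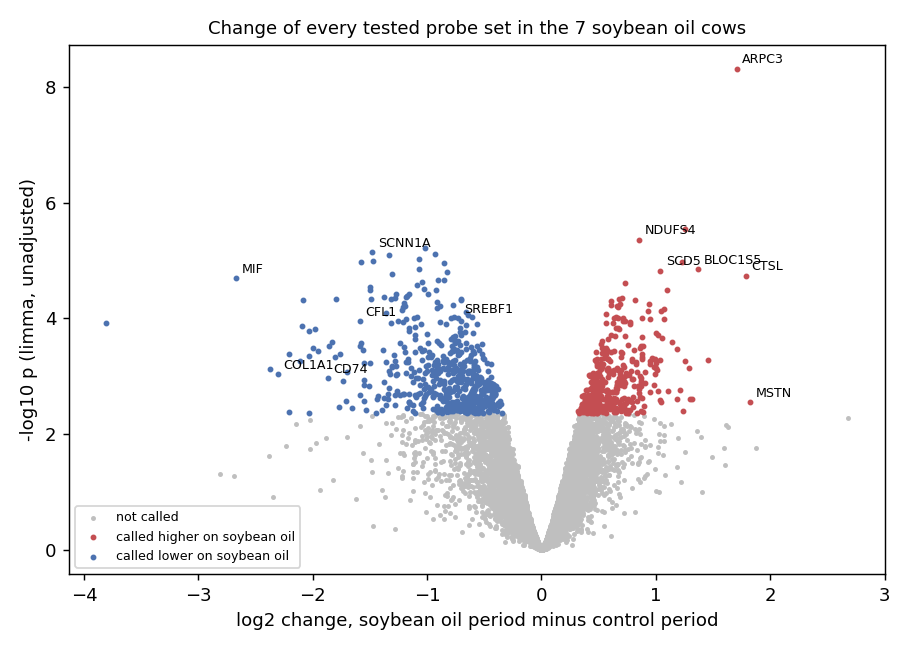
Each point is 1 of 10680 tested probe sets, with the mean log2 change (soybean oil period minus control period, 7 cows) on the horizontal axis and the -log10 of the unadjusted limma p on the vertical axis. Red marks the 402 called higher and blue the 525 called lower; ARPC3 stands highest, and the largest falls reach farther from 0 than the largest rises.

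Without cow 2, 492 probe sets were called (4.61%), 173 higher (1.62%) and 319 lower (2.99%), and 457 of them were among the 927. Leaving out cow 9, 13, 17, 18, 24 or 26 gave 372, 313, 816, 459, 69 and 143 calls, so cow 24 changed the count most, and 67 of the 69 were shared with the full comparison. With the prefix added beside the cow, where the estimate comes from cows 2 and 9 alone, 73 were called and 57 of them were shared. Within prefix 1, which sets 6 period I arrays against the period II array of cow 2, 2069 were called. Within prefix 2, which sets the period I array of cow 9 against 6 period II arrays, 268 were called. Both of these fits have 1 array on a side and leave out the pairing by cow, so their values below are given as descriptions. Period and prefix changed together in the other 5 cows and cannot be told apart there.

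The direction of the calls was also read in a cow that had not been used to make them. Of the 372 probe sets called without cow 9, whose arrays share prefix 2, 318 (85.5%) moved in cow 9 in the direction of the other 6 cows, compared with 59.4% of all tested probe sets. In cow 9 the median change of the rises was 0.38 (0.69 in the other 6) and that of the falls was -0.74 (-0.88 in the other 6). For cow 2, whose arrays share prefix 1, 93.5% of the 492 calls made without it had the same direction, against 70.8% of all tested. In the other 5 cows this share ran from 73.2% in cow 17 to 94.4% in cow 26. Cow 17 had the smallest overall change, with 397 probe sets over 2-fold, and cow 2 the largest, with 2056.

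**Figure D2:**
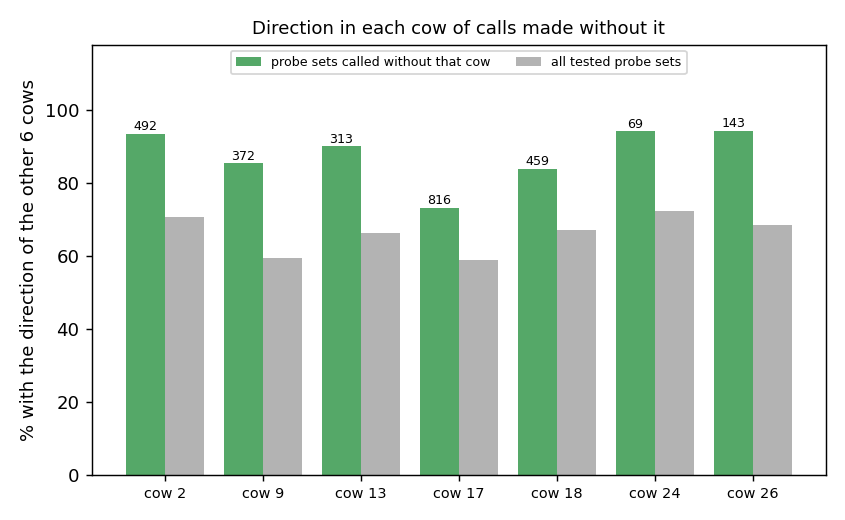
For each soybean oil cow, the green bar gives the percentage of probe sets, called from the other 6 cows, that changed in the same direction in that cow, with the number of such calls above it; the grey bar gives the same percentage over all 10680 tested probe sets. The green bar exceeds the grey bar in each of the 7 cows, and cow 17 has the lowest green bar at 73.2%.

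The smallest p belonged to ARPC3, part of the Arp2/3 machinery that starts branched actin filaments. Its level ranged from 7.80 to 8.54 (median 8.04) in the soybean oil period and from 6.13 to 6.93 (median 6.34) in the control period. Every soybean oil array stood above every control array. The rise was 3.26-fold (1.71 ± 0.09, adjusted p = 5.23e-05), it was 1.72 without cow 2 and 1.73 with the prefix beside the cow, and it was called in each of these fits. Within prefixes 1 and 2, the ARPC3 change was 1.20 and 1.65, each with 1 array on a side. With array number in place of the cow it was 1.07 and not called (adjusted p = 0.0504).

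The lysosomal protease gene CTSL had levels from 5.46 to 6.85 (median 6.40) on soybean oil and from 3.57 to 5.10 (median 4.53) on the control diet. The periods did not overlap, and CTSL was 3.45-fold higher (1.79 ± 0.23, adjusted p = 0.0109), or 1.54 higher without cow 2, in which the change was 3.28. MSTN, the secreted inhibitor of muscle growth myostatin, had the largest called rise of a named gene, with levels from 1.90 to 5.97 (median 4.44) against 1.43 to 3.51 (median 2.36). These ranges overlapped and 1 cow went the other way. Its rise of 1.82 ± 0.46 (adjusted p = 0.0426) was not called without cow 2 (1.52, adjusted p = 0.0803). BLOC1S5, a subunit of a complex that forms lysosome-related organelles, rose by 1.37 ± 0.17 (adjusted p = 0.0104) in 7 of 7 cows, with medians of 7.53 and 6.17 and overlapping ranges. LRRC8C, a subunit of volume-regulated anion channels, rose by 1.21 ± 0.28 (adjusted p = 0.035), also in every cow, and by 0.89 without cow 2 (adjusted p = 0.0182). The other large rises were those of the dim zinc transporter gene SLC39A12 (1.46 ± 0.28), the Wnt signalling regulator CCDC88C (1.29 ± 0.26) and the inositol phosphate hydrolase gene NUDT4 (1.24 ± 0.33). NUDT4 was not called without cow 2 (adjusted p = 0.101).

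MIF, which encodes a cytokine that acts on macrophages, had the largest called fall of any named gene. Its level ranged from 1.51 to 4.79 (median 3.77) on soybean oil and from 5.69 to 6.68 (median 6.34) on the control diet. No array of one period reached the other. The fall was 6.37-fold (-2.67 ± 0.34, adjusted p = 0.0112) and took place in 7 of 7 cows. Without cow 2 it was -2.30 (adjusted p = 0.00317), and with the prefix beside the cow it was -3.54 (adjusted p = 0.0483). Within prefixes 1 and 2, with 1 array on a side, the MIF change was -2.90 and -2.52, and with array number in place of the cow it was not called (-0.99, adjusted p = 0.409).

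The junction protein gene JUP fell by 2.21 ± 0.42 (adjusted p = 0.023), from control levels of 4.79 to 7.11 (median 5.81) against 2.76 to 4.68 (median 3.54) on soybean oil. The JUP ranges did not overlap. COL1A1, a chain of type I collagen, lay between 4.29 and 6.75 (median 5.06) on soybean oil and between 6.46 and 9.35 (median 7.64) on the control diet. These ranges overlapped, although every cow was lower on soybean oil (-2.30 ± 0.49, adjusted p = 0.0277). In cow 17 the COL1A1 change was only -0.005. COL1A1 was -4.24 within prefix 1, set against the period II array of cow 2, and -0.62 within prefix 2. Further large falls in named genes were those of LOC789205 (-2.37 ± 0.49), the lipid carrier gene APOE (-2.20 ± 0.59), the actin-binding TAGLN2 (-2.11 ± 0.41), the matrix glycoprotein gene FBLN1 (-2.03 ± 0.54) and ARHGDIA (-2.03 ± 0.34). In FBLN1 cow 2 changed by -5.65, and the fall without it was -1.43 (adjusted p = 0.0346). APOE was not called without cow 2 (-1.64, adjusted p = 0.0639).

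**Figure D3:**
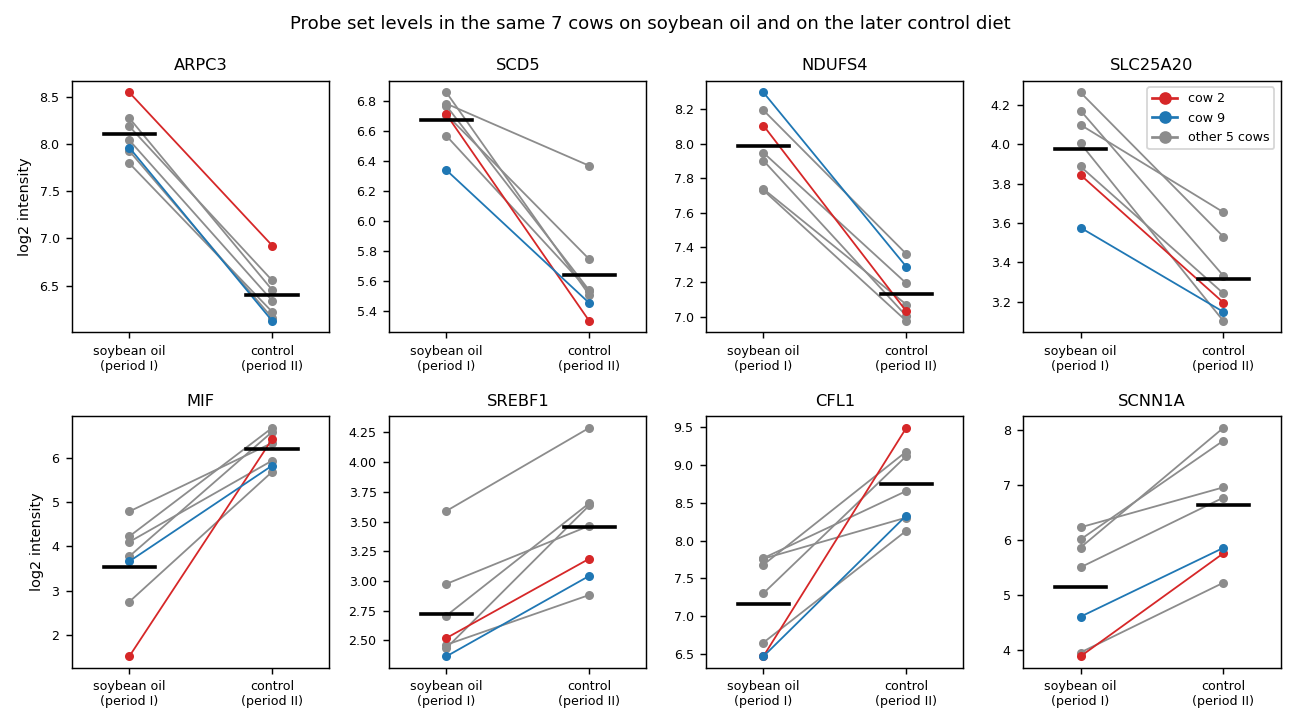
Log2 intensity of 8 genes in the soybean oil period and the later control period, with 1 line per cow, black bars at the means of 7 arrays, cow 2 in red, cow 9 in blue and the other 5 cows in grey. ARPC3, SCD5, NDUFS4 and SLC25A20 were higher and MIF, SREBF1, CFL1 and SCNN1A lower on soybean oil in each of the 7 cows; the vertical scale differs between panels.

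Fatty acid synthesis and desaturation was measured in 15 genes, of which 1 rose and none fell, with a median change of -0.13 against 0.04 over all tested probe sets. Of all tested probe sets 3.76% were called higher and 4.92% lower, so 1 call among 15 genes is close to these shares. The same shares stand beside the counts of every list below. The gene that rose was SCD5, a stearoyl-CoA desaturase that inserts a double bond into saturated fatty acids. SCD5 had levels from 6.34 to 6.86 (median 6.71) on soybean oil and from 5.33 to 6.37 (median 5.53) on the control diet. The ranges met only through the period II array of cow 13, at 6.37. SCD5 was 2.05-fold higher (1.04 ± 0.13, adjusted p = 0.0104) in 7 of 7 cows and 0.98 higher without cow 2 (adjusted p = 0.0146). With the prefix beside the cow its change was 1.13 (adjusted p = 0.07).

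SCD, the main mammary desaturase gene, did not pass the test: its levels ran from 12.3 to 12.8 (median 12.7) on soybean oil and from 11.9 to 13.0 (median 12.6) on the control diet. Both periods overlapped almost fully, and the change was 0.01 ± 0.11 (adjusted p = 0.974). ACACA, whose product makes malonyl-CoA for fatty acid synthesis, varied widely, from 2.81 to 5.39 (median 3.84) against 3.06 to 7.21 (median 5.07). It was lower in 6 of 7 cows, but the change of -1.21 ± 0.44 was not called (adjusted p = 0.107). FADS3, of the fatty acid desaturase family, was dim, with a change of -0.42 ± 0.13 (adjusted p = 0.0728).

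In the uptake, activation and transport of fatty acids none of 12 measured genes was called (median change 0.27). LPL, which releases fatty acids from blood triacylglycerol, lay between 12.1 and 12.6 (median 12.5) on soybean oil and between 11.0 and 12.6 (median 12.3) on the control diet, and its change of 0.31 ± 0.19 had an adjusted p of 0.288. The lowest control value, and the largest change, 1.45, were those of cow 2. The fatty acid binding protein gene FABP3 changed by 0.05 ± 0.10 (adjusted p = 0.789). The fatty acid transporter gene SLC27A6 was higher in 6 of 7 cows (0.51 ± 0.17) and the acyl-CoA synthetase gene ACSL5 lower in 6 of 7 (-0.76 ± 0.30), neither of them called (adjusted p = 0.0821 and 0.133).

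Triacylglycerol assembly and the milk fat globule had 21 measured genes, of which 2 rose and 1 fell, with a median of -0.02. AGPAT1, which adds the second acyl chain to the glycerol backbone, had levels from 6.37 to 7.78 (median 7.44) on soybean oil against 7.57 to 9.48 (median 8.06). It was lower in every cow with overlapping ranges (-1.04 ± 0.19, adjusted p = 0.0223), and -0.99 without cow 2. DGAT2, which adds the last acyl chain, rose by 0.47 ± 0.12 (adjusted p = 0.0424) and the lipase gene LIPE by 0.41 ± 0.10 (adjusted p = 0.0414). Both were dim, with medians of 2.40 and 1.97 for DGAT2 and 2.10 and 1.77 for LIPE, and neither was called without cow 2. GPAM, which adds the first acyl chain, changed by 0.11 ± 0.12 (adjusted p = 0.591) and the dim DGAT1 by -0.29 ± 0.17 (adjusted p = 0.291).

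Of 12 measured lipid regulators 1 rose and 2 fell (median -0.08). SREBF1, the transcription factor named above, lay between 2.37 and 3.59 (median 2.52) on soybean oil and between 2.88 and 4.29 (median 3.46) on the control diet. The ranges overlapped, yet each cow was lower on soybean oil, with changes from -1.20 to -0.42. The fall was 1.66-fold (-0.73 ± 0.11, adjusted p = 0.0138) and -0.74 without cow 2 (adjusted p = 0.0222). With the prefix beside the cow it was -0.67 (adjusted p = 0.157), and within prefixes 1 and 2 it was -0.40 and -1.13. With array number in the fit in place of the cow, SREBF1 had the opposite sign (0.38, adjusted p = 0.541).

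NR1H2, a liver X receptor that responds to oxysterols, ranged from 3.99 to 5.24 (median 4.63) against 5.35 to 6.33 (median 5.61). Its ranges did not overlap and it fell by 0.95 ± 0.18 (adjusted p = 0.0232). The NR1H2 call was lost with the prefix beside the cow (-1.22, adjusted p = 0.112) and with array number in place of the cow (-0.16). Within prefixes 1 and 2, with 1 array on a side, the change was -0.54 and -1.78. MBTPS2, a protease that releases SREBP proteins from the membrane, rose by 0.53 ± 0.12 (adjusted p = 0.0304), but was not called without cow 2 (adjusted p = 0.0548). The SREBP retention gene INSIG1 (-0.12 ± 0.21), the lipogenic and dim THRSP (0.00 ± 0.21) and the nuclear receptor PPARG (0.27 ± 0.19) did not pass the test.

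None of 15 genes of cholesterol synthesis and uptake was called, with a median of 0.38, or 0.22 without cow 2. PMVK of the mevalonate pathway lay between 4.65 and 5.97 (median 5.42) on soybean oil and between 3.55 and 5.40 (median 4.87) on the control diet. It was higher in 6 of 7 cows with overlapping ranges, and its change was 0.57 ± 0.16 (adjusted p = 0.0605). The list mean was higher in 5 of 7 cows, and its largest changes were 1.24 in cow 2 and 0.896 in cow 18. Of 6 genes of cholesterol efflux 1 fell, APOE, and none without cow 2. Their median was 0.17, whereas the mean over the 6 was -0.14, opposite in sign.

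**Figure D4:**
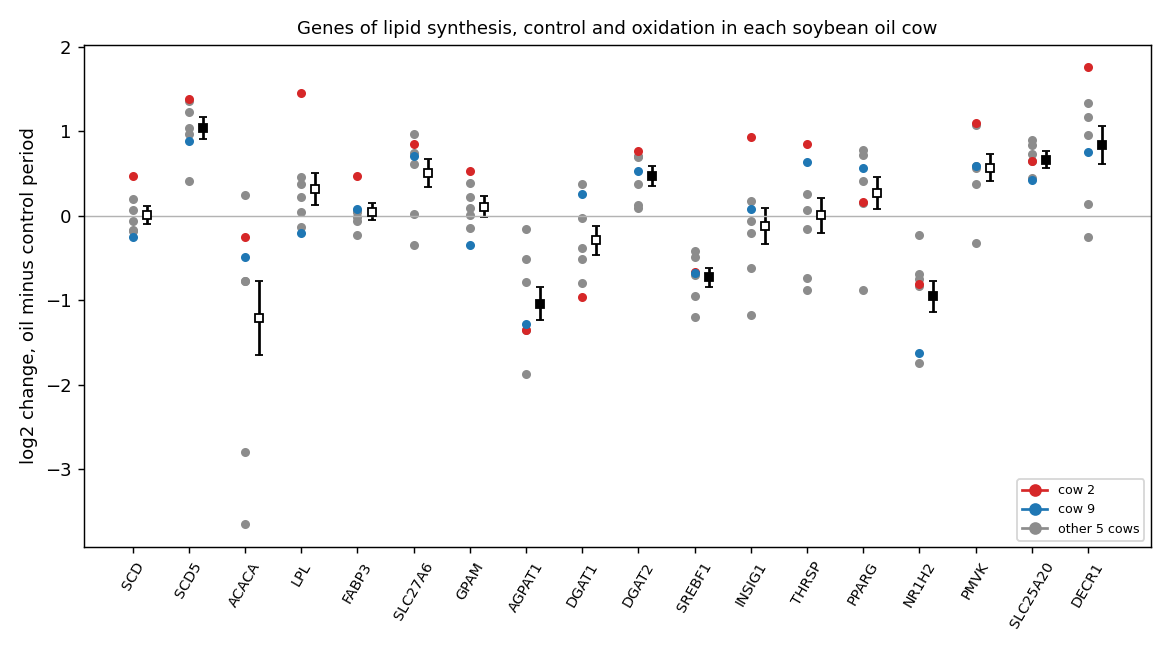
Log2 change (soybean oil period minus control period) of 18 genes of lipid synthesis, control and oxidation, with 1 point per cow (cow 2 red, cow 9 blue, the other 5 grey) and the mean with its limma standard error as a square beside them. Filled squares mark genes called at an adjusted p under 0.05: SCD5, DGAT2, SLC25A20 and DECR1 above 0 and AGPAT1, SREBF1 and NR1H2 below 0.

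Fatty acid oxidation had 19 measured genes, of which 2 rose and none fell (median 0.18). SLC25A20, the carrier that brings acyl-carnitine into mitochondria, lay between 3.58 and 4.26 (median 4.00) on soybean oil and between 3.10 and 3.66 (median 3.24) on the control diet. Only the lowest soybean oil array fell within the control range. The rise was 1.58-fold (0.66 ± 0.10, adjusted p = 0.012), and 0.66 without cow 2 (adjusted p = 0.0202). DECR1, the dienoyl-CoA reductase needed to oxidise polyunsaturated fatty acids, had levels from 6.05 to 7.35 (median 6.73) against 4.97 to 6.48 (median 5.92). Its ranges overlapped, and it rose by 0.83 ± 0.22 (adjusted p = 0.0496) in 6 of 7 cows. Without cow 2, in which it changed most, DECR1 was not called (0.68, adjusted p = 0.0941). Of the 19 genes 13 were above 0. HADHA (-0.51 ± 0.16) and ACADVL (-0.40 ± 0.12) were lower in 7 of 7 cows and not called (adjusted p = 0.0713 and 0.0687).

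Complex I had more rises than any other of the 20 pathway lists. Of 33 measured subunits of complex I, which takes electrons from NADH, 10 rose and none fell. Of all tested probe sets 3.76% were called higher and 4.92% lower. The subunits had a median change of 0.36, with 30 of 33 above 0, compared with 0.04 and 5924 of 10680 for all tested probe sets. The mean over the subunits was higher in 7 of 7 cows, from 0.032 in cow 24 to 0.578 in cow 2. Without cow 2, 6 subunits were called and the median was 0.31.

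NDUFS4, an accessory subunit of complex I, ranged from 7.73 to 8.30 (median 7.95) on soybean oil and from 6.97 to 7.36 (median 7.07) on the control diet. The periods did not overlap. NDUFS4 was 1.81-fold higher (0.86 ± 0.09, adjusted p = 0.00969) and was called without cow 2 (0.82) and with the prefix beside the cow (1.04, adjusted p = 0.0477), but not with array number in place of the cow (0.47, adjusted p = 0.188). Within prefixes 1 and 2, with 1 array on a side, it changed by 0.90 and 1.15. NDUFB4 lay between 8.93 and 9.08 (median 8.99) against 8.17 to 8.64 (median 8.53), also without overlap, and rose by 0.52 ± 0.09 (adjusted p = 0.0212). The other subunits that rose, named after their values were seen, were NDUFA4 (0.64 ± 0.13, in the list by its name though its product is now placed in complex IV), NDUFB6 (0.57 ± 0.12), NDUFA8 (0.51 ± 0.11), NDUFA1 (0.49 ± 0.12), NDUFA13 (0.44 ± 0.11), NDUFC2 (0.43 ± 0.09), NDUFB3 (0.42 ± 0.09) and NDUFB8 (0.35 ± 0.09). Each was higher in 7 of 7 cows, and of these 8 only NDUFA1 had overlapping periods. NDUFA1, NDUFA13, NDUFB3 and NDUFB8 were not called without cow 2.

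In complexes II to V, the last of which is ATP synthase, 6 of 31 genes rose and none fell (median 0.15). UQCR10 of complex III had levels from 8.34 to 8.73 (median 8.69) against 7.59 to 8.13 (median 7.83), with no overlap, and rose by 0.70 ± 0.10 (adjusted p = 0.0116). ATP5ME of ATP synthase lay between 10.1 and 10.4 against 9.62 and 9.95, again without overlap, and rose by 0.48 ± 0.09 (adjusted p = 0.0246). Further rises, named after their values were seen, were ATP5MC1 (0.98 ± 0.19), ATP5MF (0.48 ± 0.10) and ATP5F1C (0.42 ± 0.10) of ATP synthase and COX8A (0.47 ± 0.11) of complex IV. ATP5F1C was the only one of these 6 not called without cow 2 (adjusted p = 0.0648). The complex III subunit UQCRC1 had a change of -0.87 and was not called (adjusted p = 0.0506).

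Genes of milk protein and lactose synthesis had a median change of -0.04, and of 14 measured 1 rose and 1 fell. UGP2, which makes UDP-glucose for lactose, ranged from 10.9 to 11.7 (median 11.5) on soybean oil and from 10.3 to 11.2 (median 10.9) on the control diet. The ranges overlapped and each cow was higher (0.58 ± 0.14, adjusted p = 0.0403). PGM1, which supplies glucose 1-phosphate to the same route, lay between 3.11 and 4.20 (median 3.55) against 4.07 to 4.47 (median 4.15) and fell by 0.60 ± 0.16 (adjusted p = 0.0493), a call lost without cow 2 (adjusted p = 0.101). The lactose synthase component gene LALBA changed by 0.04 ± 0.09 (adjusted p = 0.776) and the kappa-casein gene CSN3 by -0.05 ± 0.09 (adjusted p = 0.745).

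Of 13 genes of sodium, chloride and amino acid transport 2 fell and none rose (median -0.20). SCNN1A, the alpha subunit of the epithelial sodium channel, had levels from 3.89 to 6.23 (median 5.50) on soybean oil against 5.22 to 8.04 (median 6.77). Each cow was lower although the ranges overlapped, and the fall was 2.79-fold (-1.48 ± 0.17, adjusted p = 0.00969). SCNN1A was called without each cow in turn, but not with the prefix beside the cow (-1.56, adjusted p = 0.0627), and it had the opposite sign with array number in place of the cow (0.97, adjusted p = 0.472). The tight junction gene CLDN3 fell by 0.56 ± 0.12 (adjusted p = 0.0325).

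Among 16 genes of actin and the Arp2/3 complex 1 rose, ARPC3, and 3 fell (median -0.13). The other 6 measured subunits of the Arp2/3 complex had changes from -0.47 to 0.18, and none was called (lowest adjusted p = 0.0733). CFL1, the filament-severing cofilin, ranged from 6.47 to 7.77 (median 7.30) on soybean oil and from 8.13 to 9.49 (median 8.65) on the control diet. Its periods did not overlap, and it was 3.00-fold lower (-1.58 ± 0.25, adjusted p = 0.014). CFL1 was called without cow 2 (-1.35) and with the prefix beside the cow (-2.44, adjusted p = 0.0477), but not with array number in place of the cow (-0.75, adjusted p = 0.432). Within prefixes 1 and 2, with 1 array on a side, it changed by -2.21 and -2.15. TAGLN2 fell as given above, and ACTB, the beta-actin gene often used as a reference, fell by 0.57 ± 0.14 (adjusted p = 0.0398). ACTB was not called without cow 2 (adjusted p = 0.0682).

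Antigen presentation genes included 4 falls and no rise among 14 measured, with a median of -0.41 and no member above 0. CD74, the invariant chain of class II molecules, lay between 6.43 and 8.03 (median 7.71) on soybean oil and between 8.39 and 10.9 (median 9.13) on the control diet. The ranges did not overlap, and CD74 was 3.64-fold lower (-1.87 ± 0.40, adjusted p = 0.0298). In cow 2 the change was -4.50, and without that cow it was -1.43 (adjusted p = 0.0202). The immunoproteasome subunit gene PSMB8 (-1.54 ± 0.40), the chaperone gene CALR (-0.58 ± 0.13) and BOLA (-0.78 ± 0.20), a major histocompatibility gene in a family with near-identical copies that the array may not separate, also fell, but none of these was called without cow 2. The list median without cow 2 was -0.23, and 1 member was called.

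Of 17 genes of the acute phase and milk defence 1 fell, MIF, and none rose (median -0.59). SAA3, an acute phase gene of the mammary gland, spread from 2.57 to 8.35 (median 5.86) on soybean oil and from 2.52 to 10.7 (median 8.93) on the control diet. The ranges covered each other and SAA3 was higher in 2 of 7 cows, so its change of -2.35 ± 1.37 was within the spread between cows (adjusted p = 0.283). The iron-binding milk protein gene LTF lay between 10.2 and 12.3 (median 11.9) against 12.0 to 12.9 (median 12.8). LTF was lower in 7 of 7 cows with an adjusted p of 0.0561 (-0.96 ± 0.27). In cow 18 the list mean changed by -2.57, the lowest of the 7.

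Among 16 genes of apoptosis and involution 5 fell and 1, CTSL, rose (median -0.28). CTSB, a lysosomal protease gene, had levels from 8.05 to 8.59 (median 8.35) on soybean oil and from 8.49 to 9.85 (median 9.26) on the control diet. The ranges met at their edges, and CTSB fell by 0.86 ± 0.17 (adjusted p = 0.0246) in 7 of 7 cows. The falls also included the receptor genes OSMR (-0.92 ± 0.18) and TNFRSF1A (-0.91 ± 0.23) and the transcription factor CEBPD (-0.88 ± 0.21). These 4 genes were named after their values were seen. CTSB and OSMR were called without cow 2, while TNFRSF1A and CEBPD were not (adjusted p = 0.0919 and 0.0518).

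In prolactin, growth hormone and insulin-like growth factor signalling 1 of 12 genes rose and 2 fell (median -0.13), and the list mean was lower in 7 of 7 cows. AKT1, a kinase below the insulin receptor, had levels from 3.24 to 5.19 (median 4.10) against 5.06 to 6.77 (median 6.01). The ranges met at their edges, and AKT1 fell by 1.76 ± 0.33 (adjusted p = 0.023). IGFBP4, a binding protein of insulin-like growth factors, fell by 1.70 ± 0.35 (adjusted p = 0.0268) in 6 of 7 cows. The growth hormone receptor gene GHR rose by 0.74 ± 0.20 (adjusted p = 0.0495), a call lost without cow 2 (adjusted p = 0.0575).

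Peroxide and glutathione enzymes had 1 rise, the mitochondrial peroxiredoxin gene PRDX3 (0.43 ± 0.11, adjusted p = 0.0472), and 2 falls among 21 genes (median -0.11). The falls were the thioredoxin reductase gene TXNRD1 (-0.50 ± 0.10, adjusted p = 0.0246) and the glutathione peroxidase gene GPX1 (-0.66 ± 0.18, adjusted p = 0.0492). PRDX3 and GPX1 were not called without cow 2, and TXNRD1 was 0.24 within prefix 1 and 0.60 with array number in place of the cow, the opposite sign. Of 13 genes of the unfolded protein response and chaperones only CALR fell (median -0.07). None of 38 measured cytosolic ribosomal protein genes was called (median -0.01), with RPL13 at -0.44 ± 0.14 (adjusted p = 0.0801) and RPS16 at -0.23 ± 0.09 (adjusted p = 0.136). In cell proliferation 1 of 16 genes rose, the mitotic kinase gene CDK1 (0.71 ± 0.19, adjusted p = 0.048), and CDK1 was not called without cow 2 (adjusted p = 0.0651). The list median was 0.05 and the mean -0.05, opposite in sign, and the dim cyclin gene CCND1 was -0.80 ± 0.23 (adjusted p = 0.0568).

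Some markers of several cell types were also lower in the soybean oil period, while others of the same types hardly changed or were higher. Of 10 luminal epithelial markers 5 fell and none rose, with a median of -0.71 and a list mean that was lower in 6 of 7 cows. Their summed intensity lay between 2562 and 3457 on soybean oil and between 2764 and 6628 on the control diet. Besides JUP, CLDN3 and the transcription factor ELF3 (-0.62 ± 0.12), the falls included the adhesion gene CDH1 (-1.27 ± 0.30) and the keratin gene KRT7 (-0.94 ± 0.21). ELF3 was dim (1.60 to 2.08 against 2.20 to 2.93) and its ranges did not overlap. All 5 were called without cow 2, where the median was -0.58. With all 7 cows, the other 5 luminal markers were not called and ranged from -1.36 for KRT8 to -0.04 for EPCAM.

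Of 9 endothelial markers 4 fell and none rose (median -0.38), with summed intensities of 181 to 325 against 243 to 431. ENG, a co-receptor of TGF-beta on endothelium, ranged from 3.19 to 6.23 (median 4.63) on soybean oil and from 5.75 to 7.31 (median 7.04) on the control diet. Each cow was lower and the ranges overlapped, with a fall of 1.95 ± 0.36 (adjusted p = 0.0223) that was called without cow 2 (-1.64) and with the prefix beside the cow (-3.23, adjusted p = 0.0477). ESAM (-0.59 ± 0.12), CDH5 (-0.68 ± 0.17) and TIE1 (-0.53 ± 0.11) were the other falls, of which CDH5 and TIE1 were dim and TIE1 was not called without cow 2 (adjusted p = 0.0558). The 5 endothelial markers not called ranged from -0.38 for EGFL7 to 0.13 for KDR.

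Fibroblast and matrix genes had 3 falls and no rise among 8 measured, and a median of -0.93. Their summed intensity lay between 4140 and 10982 against 4936 and 13823. BGN, the proteoglycan biglycan, ranged from 2.44 to 2.89 (median 2.68) against 3.06 to 5.28 (median 3.54), without overlap, and fell by 1.05 ± 0.27 (adjusted p = 0.044) beside COL1A1 and FBLN1. The list mean was below 0 in 7 of 7 cows. It changed by -2.80 in cow 2 but by only -0.023 in cow 9 and -0.004 in cow 17. Within prefix 2 the median of the list had the opposite sign (0.68). Without cow 2 the 3 genes were called and the median was -0.67. With all 7 cows, the 5 fibroblast and matrix genes not called ranged from -0.998 for COL1A2 to -0.02 for LUM. LUM was higher in 4 of 7 cows.

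Of 6 myoepithelial markers 1 fell, the keratin gene KRT17 (5.76 to 6.74 against 6.30 to 8.87), by 1.15 ± 0.29 (adjusted p = 0.0441), and the list median was -0.55. KRT17 was not called without cow 2 (-0.90, adjusted p = 0.0689), but was called with the prefix beside the cow (-2.29, adjusted p = 0.0477). Summed intensities of this list were 1618 to 2746 against 1998 to 5457. Of the 6 markers only OXTR was above 0 (0.30 ± 0.23), and it was not called. Of 9 macrophage and monocyte markers 1 fell, the Fc receptor chain gene FCER1G (-1.04 ± 0.26, adjusted p = 0.0426), at dim levels of 1.68 to 2.37 against 2.36 to 4.64. The macrophage marker CD68 was lower in 7 of 7 cows with an adjusted p of 0.0503 (-1.05 ± 0.28), the list median was -0.48, and the summed intensity was 265 to 510 against 338 to 1036. Of the 9 macrophage and monocyte markers 2 were above 0, AIF1 (0.29) and the dim ITGAM (0.12), neither of them called.

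No neutrophil (6 measured), T and NK cell (9) or B and plasma cell (5) marker was called, with medians of -0.33, 0.18 and 0.08. Summed intensities of these lists were 40.1 to 56.8 against 40.3 to 675 for neutrophils, 84.9 to 215 against 66.1 to 149.5 for T and NK cells, and 223 to 2814 against 361 to 3997 for B and plasma cells. The high neutrophil value came from cow 18, whose S100A9 level was 5.38 in period II. Adipocyte markers had 2 rises among 8, the dim LIPE and PLIN1 (0.49 ± 0.12, adjusted p = 0.0367), neither of them called without cow 2, and summed intensities of 2565 to 3886 against 2184 to 4199. Of these 8 markers 6 were above 0. The dim RBP4 (-0.95 ± 0.26, lower in 7 of 7 cows) and CFD, which was not dim (-0.36 ± 0.18), were below 0, neither of them called. Among erythrocyte markers 1 of 5 rose, the dim SLC4A1 (0.34 ± 0.09, mean levels 1.43 and 1.09), which was lost without cow 2. HBB, a globin gene with close paralogues, was 1.63 ± 0.48 (adjusted p = 0.064). Summed intensities of the erythrocyte list were 15.9 to 83.4 against 15.1 to 23.4. Of 9 skeletal muscle markers 1 rose, MYL1 (0.52 ± 0.11, adjusted p = 0.0266), at dim levels of 1.79 to 2.53 against 1.46 to 1.79, and the summed intensity was 38.2 to 50.4 against 35.7 to 127. Of the 9 muscle markers 7 were above 0. DES, also dim, was lower in 7 of 7 cows and was not called (-0.995 ± 0.44, adjusted p = 0.168). These markers moved in the same comparison as the pathway genes above, and their part in those results was not tested.

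**Figure D5:**
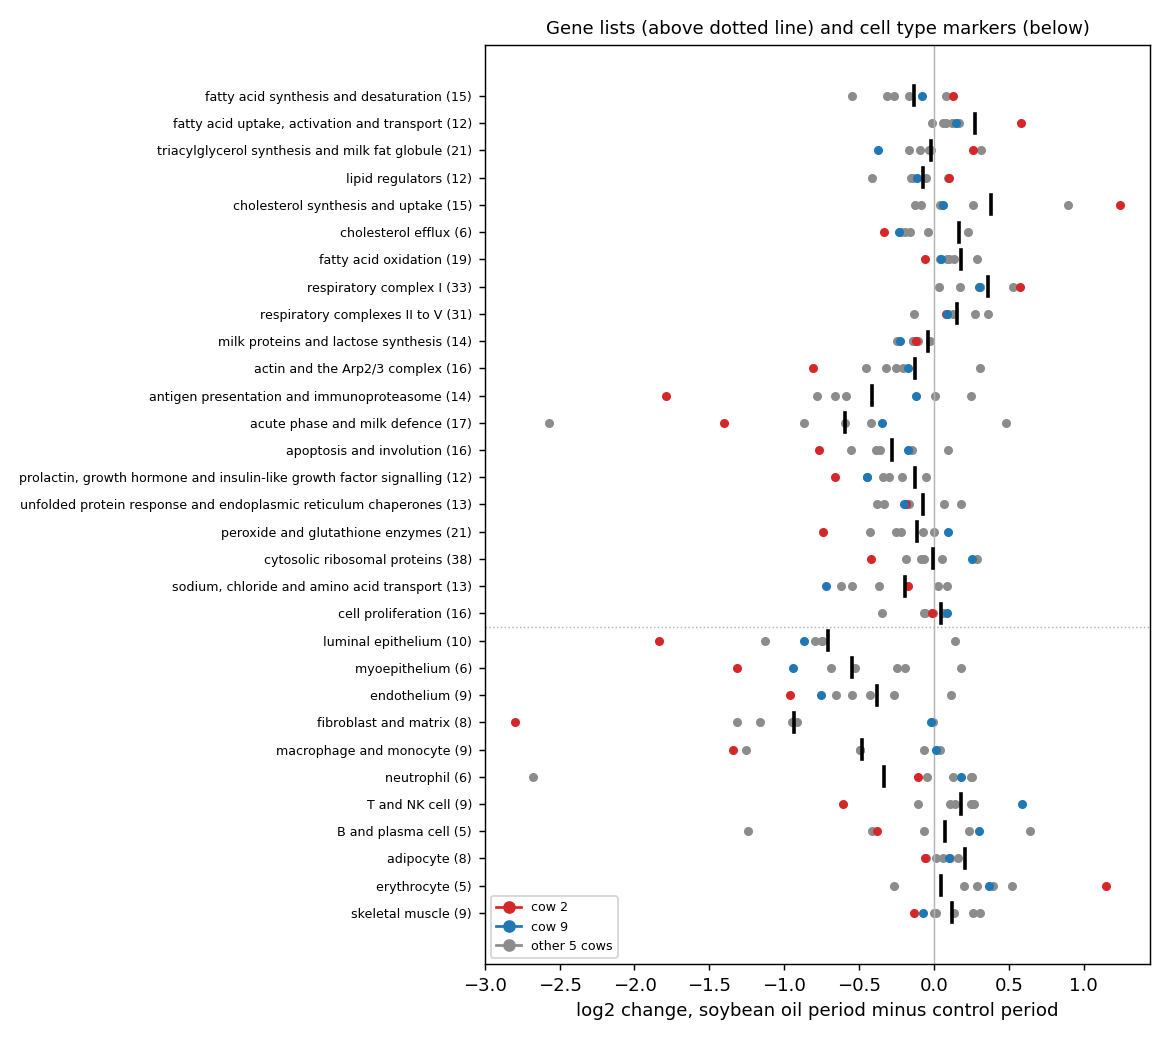
For 20 pathway lists (above the dotted line) and 11 cell type marker lists (below it), points give the mean log2 change over the measured members in each cow (cow 2 red, cow 9 blue, the other 5 grey) and black bars the median change over members in the 7-cow fit, with the number of measured members in parentheses. Complex I lies above 0 in each of the 7 cows, and fibroblast and matrix genes lie below 0 in each, at -0.023 in cow 9 and -0.004 in cow 17.

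The soybean oil change was then tested against the mean change on the other 3 oils, in 54 arrays of 27 cows that each also went from oil to the control diet. In the whole study 7 arrays had a mean correlation under 0.96 with all other arrays. Besides that of cow 2 they came from rapeseed oil cows 10 and 12, linseed oil cows 5 and 15 and mixture cow 1. Their mean correlations were 0.911 to 0.951, and they were kept in this fit. No probe set was called (0 of 10680, 0%), and 579 (5.42%) had an unadjusted p under 0.05. The smallest p belonged to SEC22C, a gene of vesicle transport, which was 0.48 higher on soybean oil and changed by -0.08, -0.08 and -0.06 on rapeseed oil, linseed oil and the mixture, a difference of 0.55 ± 0.11 (adjusted p = 0.282). THAP6 differed by 1.32 ± 0.28 (adjusted p = 0.398), SLC39A12 by 1.16 ± 0.26 and ZFAND2A by 0.58 ± 0.13 (adjusted p = 0.453 for both). SEC22C was dim in the soybean oil cows, at 2.22 to 2.87 against 1.71 to 2.24. ZFAND2A was dim too, at 1.86 to 2.57 against 1.49 to 1.92, and SLC39A12 had mean levels of 3.45 and 1.99. SCD5 changed by 1.04 on soybean oil against 0.56, 0.28 and 0.21, a difference of 0.69 ± 0.18 (adjusted p = 0.787), and the LIM domain protein gene CSRP1 differed by -0.91 ± 0.24 (adjusted p = 0.787).

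Cows on each of the other oils also had higher ARPC3 and NDUFS4 and lower MIF and SREBF1, on average, in the oil period. ARPC3 changed by 1.38, 1.81 and 1.09 on rapeseed oil, linseed oil and the mixture, and the difference of soybean oil from their mean was 0.28 ± 0.26 (adjusted p = 0.959). For MIF these changes were -1.89, -1.76 and -1.42 and the difference was -0.98 ± 0.44 (adjusted p = 0.875). NDUFS4 changed by 0.71, 0.38 and 0.78, with a difference of 0.23 ± 0.13 (adjusted p = 0.914), and SREBF1 by -0.75, -0.12 and -0.29, with a difference of -0.34 ± 0.21 (adjusted p = 0.914). For CTSL the values were -0.42, 0.75 and 0.70, and the difference of 1.44 ± 0.59 was not called (adjusted p = 0.82). The standard errors leave room for differences of more than 1 log2 unit in genes such as CTSL and MIF.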

How the data were processed

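Mammary RNA was measured on 1-colour Affymetrix bovine arrays. Linear intensities per probe set were used as deposited; RMA and GCRMA are named in the submitters' processing notes, with neither version nor role given. Log2 was taken here without further scaling. Of 11495 probe sets 112 controls were left out and 703 with values identical to another were merged, leaving 10680. RefSeq accessions gave 1 symbol to 6649 of these (6636 genes), several to 2 and none to 4029. Where a gene had more than 1 probe set, that with the highest mean level was taken. The genes FASN, LPIN1 and CSN2 were not analysed here, and a few genes that entered the counts are not reported here by name.

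Using limma 3.58.1 (R 4.3.3), the change was fitted on the 14 soybean oil arrays, with the cow as a fixed block, two-sided, with Benjamini-Hochberg adjustment over 10680 probe sets and calls at an adjusted p under 0.05. Arrays were paired by cow number, since each pair is 1 animal; deviations of the same cow had a median correlation of 0.0382, against -0.0218 between different cows. The difference from the other oils was fitted on 54 arrays with a period effect per diet. The number of arrays limits the precision.

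The cows compared, the 20 pathway lists and the 11 marker lists were chosen with earlier results of these data known, so lists are described by counts and medians and not tested. Named genes were the 8 largest rises and 8 largest falls among called genes with that direction in at least 6 of 7 cows, the 2 smallest p in each list, 15 genes of milk synthesis and of earlier interest, and the 6 smallest p for the difference between oils. Called list members outside this rule were named after their values were seen: the respiratory chain and apoptosis genes so marked, and DGAT2, MBTPS2, ACTB, PSMB8, BOLA, GHR, GPX1, CDH1, KRT7, CDH5 and TIE1. Some members that were not called were also named after their values were seen, and stand outside the 113 named genes counted below. They are HADHA, ACADVL, UQCRC1, KRT8, EPCAM, EGFL7, KDR, COL1A2, LUM, OXTR, AIF1, ITGAM, FABP4, RBP4, CFD and DES. The fits were tested on simulated data with known changes.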

Additional observations from a re-analysis of the deposited data

Results flagged for a closer look

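Each named gene's level in either period, and its change, was searched for a cow that stood apart from the other 6 by Dixon's criterion. Of 339 groups of 7 values, 30 had such a cow, and chance alone flags about 1 in 20. In 21 of the 30 that cow was cow 2, whose period II array stood apart. Among the 30, 1 group is not reported here by name.

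Cow 2 had the largest change in CTSL (3.28, other cows 1.15 to 1.92), LRRC8C (3.13, others 0.55 to 1.28), UGP2 (1.41), LPL (1.45) and FABP3 (0.470, others -0.23 to 0.073). It had the lowest change in MIF (-4.92, others -2.94 to -1.55), FBLN1 (-5.65), CD74 (-4.50), TAGLN (-2.49), BGN (-2.83) and CSRP1 (-3.02). In the control period its levels were lowest for ABCG2 (10.1, others 11.4 to 12.3), SCD (11.9), FABP3 (12.3) and GPAM (11.1), and highest for BGN (5.28) and CSRP1 (7.45). In the soybean oil period cow 2 was lowest for ESAM (3.41) and CSN3 (13.6) and highest for PLIN1 (2.72).

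Cow 18 had a high S100A9 level in the control period (5.38, others 2.07 to 2.93), a change of -3.48 in that gene (others -0.55 to 0.18), and the lowest LTF level in the soybean oil period (10.2). Cow 9 was highest in the soybean oil period for FBLN1 (6.56, others 3.56 to 4.41) and CD3E (4.25). Cow 13 was highest for SCD5 in the control period (6.37), and cow 24 for TIE1 (3.06). Cow 17 had a PPARG change of -0.885 (others 0.15 to 0.78), and cow 26 the lowest UGP2 level in the soybean oil period (10.9).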

How the results depend on the processing

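Each choice was changed in turn. Leaving out 1 cow at a time gave between 27 and 316 higher calls and between 42 and 500 lower calls, against 402 and 525 with all 7 cows, and 0 or 1 call for the difference from the other oils (1 without cow 26). All 54 arrays in 1 fit gave 672 higher and 771 lower calls and median centring 771 higher and 417 lower. Without the replicate block of cow, 603 were called higher and 661 lower, and 0 for the difference from the other oils. Each cow had 1 array in each period, so leaving out the block cannot alter a change or its sign, only its standard error. Quantile normalization gave 384 and 442, leaving out dim probe sets 269 and 475 of 5922, and an intensity trend with a robust prior 460 and 548. With the prefix beside the cow 17 were called higher and 56 lower, within prefix 1 837 and 1232, within prefix 2 136 and 132, and with array number in place of the cow 29 and 11. In this last fit 134 of the 927 calls had the opposite sign. Array number is 28 higher in period II in every cow and cannot be fitted with the cow. It equals the cow number in period I, so the fit with array number extends a trend over cow numbers across that gap. What the changed signs reflect was not tested. The period II side of prefix 1 is 1 array, as is the period I side of prefix 2, and each lone array is assumed to vary like the other period.

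Of 113 named genes 79 were called. The number still called was 51 without cow 2, 28 without cow 9, 26 without cow 13, 61 without cow 17, 33 without cow 18, 11 without cow 24 and 14 without cow 26, and 9 were called without each cow in turn: CTSL, ARPC3, BLOC1S5, MIF, SCD5, SLC25A20, NDUFS4, UQCR10 and SCNN1A. With the prefix beside the cow 8 were called: CTSL, ARPC3, LRRC8C, MIF, NDUFS4, CFL1, KRT17 and ENG. With array number none of the 79 was called, and MSTN (-0.090), AGPAT1 (0.46), SREBF1 (0.38), TXNRD1 (0.60) and SCNN1A (0.97) had the opposite sign. TXNRD1 was 0.24 within prefix 1 and FBLN1 0.65 within prefix 2. The causes were not tested.

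List medians that moved by more than the SD between cows were as follows. With the prefix beside the cow they were fatty acid uptake 0.47, fatty acid oxidation 0.070, ion and amino acid transport -0.53, luminal epithelium -1.37 and myoepithelium -1.22. With array number they were fatty acid synthesis 0.50, fatty acid uptake 0.68, triacylglycerol synthesis 0.61, lipid regulators 0.39, cholesterol synthesis 1.25, cholesterol efflux 0.63, milk proteins and lactose 0.14, actin -0.55, antigen presentation -1.09, unfolded protein response 0.27, ribosomal proteins -0.35, ion and amino acid transport 0.36, myoepithelium -1.39, endothelium -0.015, macrophages -1.51, T and NK cells -0.26, B and plasma cells -0.75 and skeletal muscle 0.42. Within prefix 1 they were fatty acid synthesis 0.52, fatty acid uptake 0.72, triacylglycerol synthesis 0.55, lipid regulators 0.12, cholesterol synthesis 1.46, cholesterol efflux 0.58, milk proteins and lactose 0.19, actin -0.64, antigen presentation -1.33, apoptosis -0.71, hormone signalling -0.43, unfolded protein response 0.14, peroxide enzymes -0.42, ribosomal proteins -0.42, luminal epithelium -1.51, myoepithelium -1.80, fibroblasts -2.11, macrophages -1.22, T and NK cells -0.55, B and plasma cells -0.70, adipocytes 0.46, erythrocytes 0.47 and skeletal muscle 0.44. Within prefix 2 they were fatty acid synthesis -0.43, fatty acid uptake -0.070, triacylglycerol synthesis -0.38, lipid regulators -0.32, cholesterol synthesis -0.19, cholesterol efflux -0.33, milk proteins and lactose -0.16, ribosomal proteins 0.28, fibroblasts 0.68, macrophages 0.33, adipocytes -0.011 and skeletal muscle -0.049. Milk proteins and lactose took 0.041 with median centring and adipocytes 0.094 with quantile normalization. Without dim probe sets hormone signalling was -0.43, ion and amino acid transport -0.56, adipocytes -0.018 and erythrocytes 1.63. The adipocyte value then came from FABP4 and CFD alone and the erythrocyte value from HBB alone. All skeletal muscle markers were dim, so that list dropped out. The lists whose medians moved by less than that SD in every fit were complex I, complexes II to V, acute phase and milk defence, cell proliferation and neutrophils. This SD was 1.06 for neutrophils and 0.96 for acute phase and milk defence, larger than the size of their medians. The neutrophil median was 0.04 with the prefix beside the cow, against -0.33 without it, so its sign differed. Of the complex I genes named, only NDUFS4 was called with the prefix beside the cow.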
